A study of Danio rerio with 12 samples.

Results

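Regions of open chromatin shared by 4 skeletal cell populations of the zebrafish are described here. They were mapped by ATAC-seq, which tags accessible DNA with a transposase, and the deposited values are lists of summits, the points where called peaks are highest. Chaining the summits of 12 libraries over gaps of up to 250 bp gave 133213 regions. Each library was then cut to the length of the shortest list by keeping the strongest summits, and a group of 3 libraries held a region when at least 2 of them had such a kept summit in it. By this rule 4088 regions were held by all 4 groups, which is 30.2% of the 13540 regions held by any group and 3.07% of all regions. The regions were thus chosen by the ranks of their summits, so their number and their strength are a description and not a result.

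The cells came from fish of genotype WT that carried the transgenes entpd5a:Gal4FF;UAS:GFP;R2col2a1a:mCherry in all groups, and were sampled 15 days after fertilisation. Head osteoblasts, called classical in the labels, and trunk osteoblasts, called non-classical, were sorted as GFP-positive and mCherry-negative cells. Head chondrocytes and trunk chondrocytes, the latter called intersegmental spinal in the design text, were sorted as mCherry-positive and GFP-negative cells. The gates therefore follow the activity of the entpd5a driver and of a col2a1a enhancer, and the number of fish behind a library is not stated. Each group had 3 libraries, labelled as biological replicates. In such bulk samples fewer open cells and less open chromatin per cell cannot be told apart.

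Osteoblasts deposit and mineralise the matrix of bone, and entpd5a is an ectonucleotidase gene needed for mineralisation in zebrafish. Chondrocytes build cartilage, whose main fibrillar collagen is the product of col2a1a. Chromatin that is open in many cell types typically lies at promoters of genes that most cells use and at sites bound by insulator proteins, while chromatin open in a single cell type more often lies at distal enhancers. The regions below are given by position on GRCz11, the assembly that danRer11 denotes, and no gene, promoter or motif is assigned to them because no annotation or sequence of that build was used here. Marker genes of the sorted cells were not analysed here for the same reason.

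The full lists held up to 79517 summits, and depth beyond the length of a list is unknown. The shortest list, that of trunk chondrocyte replicate 3, was used whole, down to a score of 1.31, while the weakest kept summit of the other libraries scored between 9.61 and 172. The score is a −log10 value from the peak caller, of p or q. Replicate 1 of head osteoblasts, of trunk osteoblasts and of trunk chondrocytes are described in the labels as having lost files. A summit missing from a kept list does not show that chromatin was closed.

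Most of the shared regions were present in every library. Of the 4088 regions, 2897 (70.9%) had a kept summit in 12 of 12 libraries, 807 (19.7%) in 11, 280 in 10, 88 in 9 and 16 in 8, the lowest number the rule allows. The share with a kept summit in all 3 libraries of a group was 93.3% and 91.6% for the osteoblasts of head and trunk, and 92.1% and 81.5% for the chondrocytes of head and trunk. Trunk chondrocyte replicate 3 lacked 477 of the regions, and each of the other 11 libraries lacked between 54 and 192. With the full lists those 11 libraries lacked between 1 and 23, and 3548 regions (86.8%) had a summit in all 12 libraries. Trunk chondrocyte replicate 3, already used whole, still lacked its 477.

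Shared regions made up a similar part of every library, which the equal list lengths and the rule largely set in advance. They were between 46.4% and 48.0% of the regions with a kept summit in 11 libraries and 43.6% in trunk chondrocyte replicate 3. Of the 14542 regions held by all 4 groups when the lists are taken at full length, the 4088 make up 28.1%. Of the 5283 regions with a summit in all 12 full lists they make up 67.2%.

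Shared regions filled most of the top of every list. Among ranks 1 to 100 they took 97% to 100% of the summits in the osteoblast libraries, 99% and 96% in replicate 3 of head and trunk chondrocytes, and 85% to 93% in the other 4 chondrocyte libraries, so that the cell types overlapped there. Among the summits of rank 101 to 500, shared regions took 98.6% ± 0.173 in head osteoblasts and 97.7% ± 1.33 in trunk osteoblasts (SD, n = 3 each). They took 86.1% ± 7.86 in head chondrocytes and 83.5% ± 5.16 in trunk chondrocytes. In the same bin, regions held by both chondrocyte groups and no osteoblast group took 10.3% ± 5.92 in head chondrocytes and 11.5% ± 5.89 in trunk chondrocytes. Regions held by both osteoblast groups and no chondrocyte group took 0.5% in each osteoblast group at these ranks.

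Further down the lists the order turned. At rank 1001 to 2000 the shared regions took 87.6% ± 1.98 and 86.4% ± 0.854 of the summits in head and trunk osteoblasts, and 72.1% ± 5.24 and 67.4% ± 4.5 in head and trunk chondrocytes. From rank 6001 to the last kept summit they took 12.5% ± 1.78 and 12% ± 0.52 in osteoblasts, and 19.7% ± 3.81 and 20.4% ± 4.97 in chondrocytes. The chondrocyte libraries were not alike in this. Head chondrocyte replicate 3 and trunk chondrocyte replicate 3 held 95.2% and 89.2% shared summits at rank 101 to 500, and the other 4 chondrocyte libraries between 79.2% and 82.0%. These shares come from the ranks that chose the regions and have no test. Each library held a similar number of shared regions, so a larger share at the top leaves a smaller one further down. The turn is therefore not a separate observation.

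**Figure D1:**
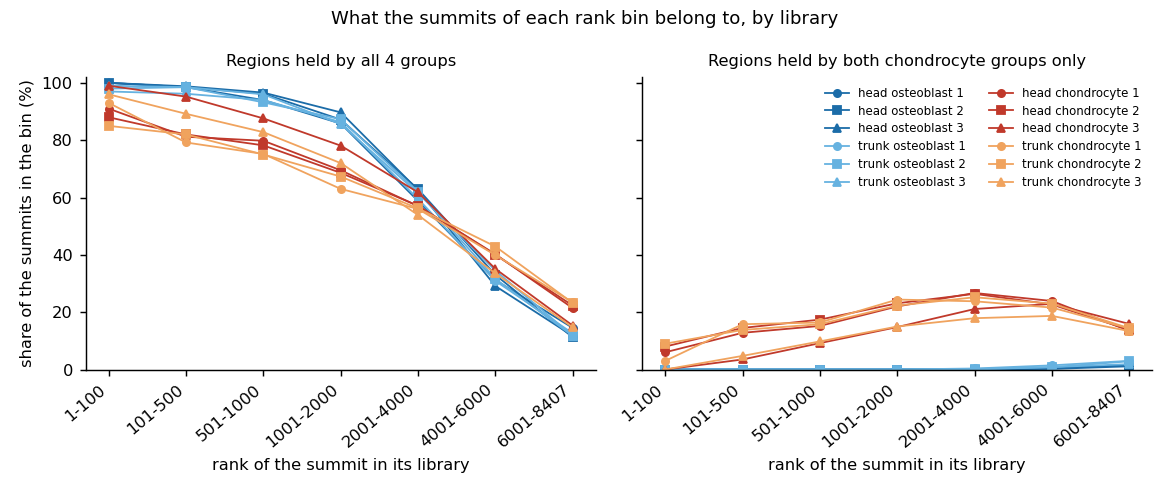
Share of the summits in each rank bin (x axis, rank 1 being the strongest) that fell in regions held by all 4 groups (left) or by both chondrocyte groups only (right), in percent, with 1 line per library. At rank 101 to 500 the 6 osteoblast lines lie between 96.2% and 98.8% on the left, and 4 of the 6 chondrocyte lines lie near 80%, with replicate 3 of each chondrocyte group in between.

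The 5 regions with the lowest median rank were chromosome 20, 4608900 to 4608903, chromosome 8, 10860 to 10900, chromosome 25, 6390260 to 6390278, chromosome 5, 2810413 to 2810453, and chromosome 1, 54972313 to 54972348. Each had a kept summit in all 12 libraries.

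The chromosome 20 region spanned 4 bp over the summits of all libraries. Its ranks were 2, 171 and 170 in head osteoblast replicates 1 to 3, 2, 2 and 150 in trunk osteoblasts, 2337, 1 and 1 in head chondrocytes, and 1, 59 and 1 in trunk chondrocytes. The 5 libraries in which it ranked 59 or lower in strength were the 5 with the longest lists, from 55274 to 79517 summits, and in the 7 libraries with lists of up to 51158 summits it ranked 1 or 2. Each of the 4 groups contained libraries of both kinds. The slope of its log2 rank on log2 list length was 3.57 ± 0.87 (SE), which did not pass the threshold across all tested regions (limma adjusted p = 0.072).

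The chromosome 8 region stood further from the top in shorter lists, but its slope of -1.52 ± 0.48 did not pass the threshold either (limma adjusted p = 0.16). It ranked 18, 7 and 1 in head osteoblasts, 32, 12 and 1 in trunk osteoblasts, 1, 2 and 3 in head chondrocytes, and 20, 2 and 14 in trunk chondrocytes. Its ranks of 12 or more fell in the 5 libraries with lists of up to 28911 summits. The chromosome 25 region ranked between 2 and 30, that on chromosome 5 between 1 and 65, and that on chromosome 1 between 2 and 72. None of the 5 differed in rank between cell types or between head and trunk in the fits described below, the lowest of the 10 adjusted p-values being 0.1.

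At the other end, the rule kept regions that barely met it. The 3 regions just inside had a second-best rank in their weakest group of 8406, 8406 and 8405, and of the 3 just outside 1 missed the limit by a single place and the others had 8409 and 8412. The first of those inside, chromosome 2, 22817651 to 22817671, lay near the limit in every group, with ranks from 6424 to 12274. The second, chromosome 13, 33487802 to 33487832, ranked as high as 1710 in trunk chondrocyte replicate 3 and met the rule in head chondrocytes with ranks of 6011, 8406 and 11550. A region just outside, chromosome 6, 27545609 to 27545706, ranked between 1796 and 2571 in 5 of the 6 chondrocyte libraries but 11682, 7545 and 5446 in head osteoblasts. In trunk osteoblasts it was in the lists of replicates 2 and 3 at 8409 and 6214.

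Trunk chondrocytes were the weakest group for 1722 of the shared regions (42.1%) and head chondrocytes for 1147 (28.1%). Head osteoblasts were the weakest for 657 (16.1%) and trunk osteoblasts for 562 (13.7%). Of the 1424 regions held by exactly 3 groups, 554 lacked trunk chondrocytes, 325 head osteoblasts, 316 head chondrocytes and 229 trunk osteoblasts. With full lists between 93.0% and 98.4% of each of these 4 kinds were held by all 4 groups. A summit in all 12 full lists was present in 18.2% of those that lacked trunk chondrocytes, against 57.2% to 66.8% of the other kinds. Trunk chondrocyte replicate 3 was already used whole, so full lists could add no summit from it. The rule and that list thus bound the share of 18.2%, and nothing is read from it.

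Ranks were compared in a limma model of all 12 libraries across the 13540 held regions, on the log2 of the rank among the kept summits, with the next rank after the last where none was kept. A lower rank number means a stronger summit. Between osteoblasts and chondrocytes 1411 of the 4088 regions changed (34.5%) at an adjusted p under 0.05, against 39.9% of all tested regions. Of these, 1038 stood nearer the top in osteoblasts (25.4%, against 21% of all tested regions) and 373 in chondrocytes (9.12%, against 19%). The rule bounds the rank of these regions in every group, so nothing is read from a share of theirs against that over all regions.

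The balance between those directions depended on what the rank counts. The median difference over the shared regions was -0.35 on the log2 scale, osteoblasts minus chondrocytes, and -0.11 over all tested regions. When the rank was counted among the shared regions alone, a choice made after the data were seen, the median was -0.06 and 993 regions changed, 479 nearer the top in osteoblasts (11.7%) and 514 in chondrocytes (12.6%). Of the 1411 regions, 852 were also called on that scale, all 852 in the same direction, and 0 of the 1411 had the other sign. A region with a positive or negative call thus kept its sign. The excess towards osteoblasts was present on the first scale only. Counting ranks among the shared regions alone gives every library nearly the same set of ranks, which removes a shift common to these regions. The near-even split on the second scale was thus largely set in advance, and nothing is read from it. In 335 of the 4088 regions (8.19%, against 6.86% of all tested regions) all 6 osteoblast libraries ranked above all 6 chondrocyte libraries, and in 135 (3.3%, against 8.43%) the reverse held.

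**Figure D2:**
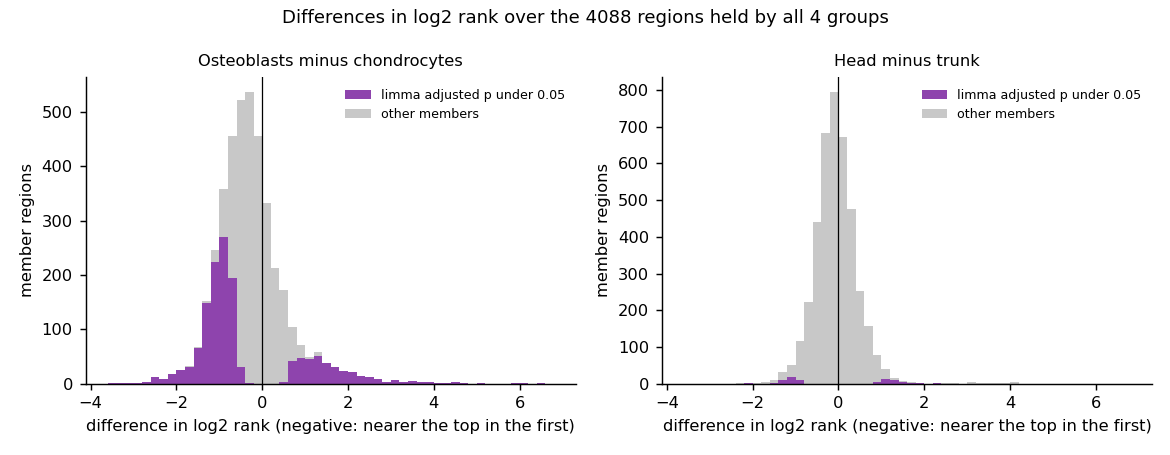
Histograms of the difference in log2 rank over the 4088 shared regions, osteoblasts minus chondrocytes (left) and head minus trunk (right), with the regions at a limma adjusted p under 0.05 in purple. The left histogram has its middle at -0.35 and holds 1411 called regions with a long tail to the right, and the right one has its middle at -0.08 and holds 80.

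The largest shifts were towards chondrocytes, with log2 differences of up to 6.46, against -3.43 at the other end. The regions named next were chosen by the smallest p and not by the size of the shift. The region on chromosome 25, 31011092 to 31011269, was shared by the rule but ranked 6486, 5460 and 6556 in head osteoblasts and 5722, 5506 and 5105 in trunk osteoblasts. It ranked 194, 213 and 344 in head chondrocytes and 131, 297 and 358 in trunk chondrocytes. All 6 chondrocyte libraries placed it among their strongest 400 and the groups did not overlap, with geometric mean ranks of 5780 and 241, which differed by 4.58 ± 0.29 on the log2 scale (SE; limma adjusted p = 1.2e-07).

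The region on chromosome 19, 8805102 to 8805243, moved further but varied more. It ranked 59, 85 and 456 in head chondrocytes and 214, 31 and 51 in trunk chondrocytes. It ranked 6816, 6592 and 7224 in head osteoblasts and 6257, 16563 and 3891 in trunk osteoblasts, so that trunk osteoblast replicate 2 had no kept summit there. The cell types did not overlap, and the log2 difference was 6.05 ± 0.52 (limma adjusted p = 9.2e-07).

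The other 3 regions with the smallest p in this direction were chromosome 16, 39085125 to 39085283, chromosome 12, 2220187 to 2220467, and chromosome 5, 64137574 to 64137633. Their geometric mean ranks were 353, 664 and 356 in chondrocytes and 5720, 6540 and 4110 in osteoblasts. In each of them every chondrocyte library ranked the region above every osteoblast library.

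Among the regions with the smallest p towards osteoblasts the shifts were smaller. The region on chromosome 19, 22240467 to 22240511, ranked 421, 580 and 585 in head osteoblasts and 783, 489 and 843 in trunk osteoblasts. It ranked 3271, 3498 and 2864 in head chondrocytes, 5180 and 7783 in trunk chondrocyte replicates 1 and 2, and was not in the list of replicate 3. The log2 difference was -2.98 ± 0.25 (limma adjusted p = 7.7e-07), and the cell types did not overlap.

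The region on chromosome 13, 48766147 to 48766179, was even within cell types. It ranked between 521 and 707 in the 6 osteoblast libraries and between 2721 and 4289 in the 6 chondrocyte libraries (log2 difference -2.45 ± 0.23, limma adjusted p = 2.1e-06). Regions on chromosome 20, 147621 to 147806, chromosome 14, 25959513 to 25959611, and chromosome 1, 25157764 to 25157841, followed. Their geometric mean ranks were 942, 892 and 526 in osteoblasts and 6180, 5060 and 3070 in chondrocytes. On the last of these the locations also stood apart within osteoblasts, with 889, 882 and 934 in the head and 196, 283 and 519 in the trunk. Within chondrocytes the order of the locations was the reverse, with 2372, 1908 and 2125 in the head and 4769, 4647 and 3941 in the trunk.

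**Figure D3:**
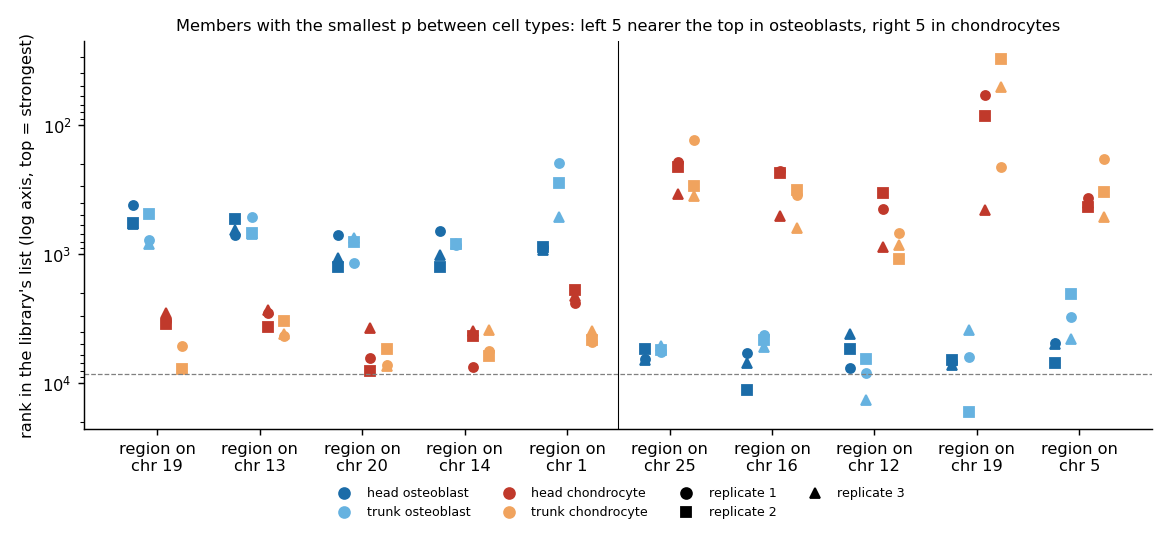
Rank in the library's full list (log axis, strongest at the top) of the 10 shared regions with the smallest p between cell types, with 1 point per library coloured by group and shaped by replicate. The dashed line marks the last kept rank, and a library without a summit in the region has no point. In the left 5 regions all osteoblast points lie above all chondrocyte points, and in the right 5 the reverse.

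The count of 1411 stayed above 1000 when any single library was left out. It ran from 1112 without head chondrocyte replicate 2 to 1659 without trunk chondrocyte replicate 3. In those fits 33.6% and 44% of all tested regions were called, so the count moved together with that share. Without the 3 libraries that lost files the count was 957, with 30.3% of all tested regions called in that fit, and 707 of the 957 stood nearer the top in osteoblasts.

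Few shared regions were called between head and trunk. The rule bounds their ranks here too, so again nothing is read from their share against that over all regions. Of the 4088, 80 changed (1.96%, against 3.45% of all tested regions), 43 nearer the top in the head (1.05%, against 1.69%) and 37 in the trunk (0.905%, against 1.76%). At an unadjusted p under 0.05 in limma there were 670 of the 4088, against 2937 of the 13540 tested regions. All 6 head libraries ranked above all 6 trunk libraries in 20 regions (0.489%, against 0.325%) and below them in 6 (0.147%, against 0.318%).

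The region on chromosome 1, 13402397 to 13402569, had the smallest p in the head direction. It ranked 2981, 2890 and 1454 in head osteoblasts against 4935, 7173 and 7739 in trunk osteoblasts, and 426, 266 and 457 in head chondrocytes against 2607, 3713 and 2156 in trunk chondrocytes. Head was above trunk in each cell type, and the log2 difference, head minus trunk, was -2.18 ± 0.28 (SE; limma adjusted p = 0.0019). With summits chained over 100 bp it was -1.29 ± 0.25 (limma adjusted p = 0.015). The other 4 regions with the smallest p in this direction, on chromosomes 3, 4, 7 and 6, had log2 differences between -1.24 and -1. On normal scores of the rank those on chromosomes 3, 4 and 6 lost their call (limma adjusted p = 0.056, 0.072 and 0.22). With ranks among the shared regions alone those on chromosomes 3 and 4 differed by -0.67 and -0.5.

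In the trunk direction the region on chromosome 2, 55322342 to 55322396, had the smallest p. It ranked 1880, 940 and 1243 in trunk osteoblasts and 2046, 964 and 3076 in trunk chondrocytes. It ranked 6774, 10103 and 8190 in head osteoblasts and 3920, 8405 and 10980 in head chondrocytes. All 6 trunk libraries stood above all 6 head libraries, and the difference was 2.21 ± 0.31 on the log2 scale (limma adjusted p = 0.0036). This region was also 1 of the 3 that barely met the rule. Regions on chromosome 20, 37558278 to 37558497, and chromosome 23, 31107483 to 31107606, followed, with geometric mean ranks of 2030 and 1350 in the trunk and 7700 and 4740 in the head. The chromosome 20 call was lost when summits were chained over 100 bp, where the log2 difference was 1.03 ± 0.38 against 1.92 (limma adjusted p = 0.15).

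By the interaction term the cell type difference itself differed between head and trunk in 10 of the 4088 regions. That is 0.245%, against 1.1% of all tested regions. At an unadjusted p under 0.05 in limma there were 267 of the 4088, against 2095 of the 13540 tested regions. In 9 of the 10 called regions the difference, osteoblasts minus chondrocytes, was more positive in the head (0.22%, against 0.583%). In 1 it was more negative (0.0245%, against 0.517%). This test was added after the data were seen.

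The number of head and trunk calls varied when single libraries were left out. It was 42, 31 and 35 without head osteoblast replicates 1, 2 and 3, and 41, 30 and 95 without those of trunk osteoblasts. In the same order it was 54, 25 and 44 for head chondrocytes and 45, 78 and 161 for trunk chondrocytes. Each such fit also has fewer residual degrees of freedom, so these counts do not show that the calls rest on particular libraries. Without the 3 libraries that lost files limma called 0 of the shared regions, with 522 at an unadjusted p under 0.05. That fit had 5 residual degrees of freedom and called 0 of all tested regions too. The regions named here kept their direction in it, with limma adjusted p-values between 0.054 and 0.092.

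List length went with a further part of the variation among the shared regions. The first component of their log2 ranks, centred per region, took 38.1% of the variance and gave loadings of 0.21 to 0.34 to the 6 osteoblast libraries and of -0.37 to -0.11 to the 6 chondrocyte libraries. Head chondrocyte replicate 3 and trunk chondrocyte replicate 3 had the smallest of these, -0.13 and -0.11. The second component took 21.7%. Its loadings were positive, from 0.03 to 0.63, in the 5 libraries with lists of up to 28911 summits. They were negative, from -0.32 to -0.04, in the other 7. Replicate 1 of head osteoblasts, of trunk osteoblasts and of trunk chondrocytes, which lost files, are all among those 5. List length and file loss thus cannot be fully told apart here or in the slopes below.

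In a limma model with the log2 list length beside the 4 group means, a test added after the data were seen, 40 of the 4088 regions changed with list length (0.978%, against 0.916% of all tested regions). Of these, 30 ranked nearer the top in shorter lists (0.734%, against 0.775%) and 10 in longer lists (0.245%, against 0.14%). The 30 had a median width of 40.5 bp and 5 of them lay on unplaced scaffolds, against 58 bp and 78 of 4088 for all shared regions. The count was 62 without head osteoblast replicate 1, 22 without trunk osteoblast replicate 3 and 19 without trunk chondrocyte replicate 2.

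A region on chromosome 10, 16798614 to 16798646, shows this pattern. It ranked 28 in trunk chondrocyte replicate 3 and 358 in replicate 1, but 8525 in replicate 2. It ranked 80 and 415 in trunk osteoblast replicates 1 and 2 and 6613 in replicate 3, and 413, 7903 and 4305 in head osteoblasts. In head chondrocytes it ranked 17868, 3479 and 3055. The slope of its log2 rank on log2 list length was 3.04 ± 0.23 (SE; limma adjusted p = 9e-06). In the other direction, chromosome 19, 35710673 to 35710758, had the smallest p, with a slope of -1.17 ± 0.21 (limma adjusted p = 0.0084). Chromosome 20, 23668140 to 23668156, followed with -0.98 ± 0.18 (limma adjusted p = 0.0092). It ranked between 436 and 582 in trunk osteoblast replicate 3, head chondrocyte replicate 1, trunk chondrocyte replicate 2 and head osteoblast replicate 2. Its rank was 994 in head osteoblast replicate 3, also with a long list, and 884 and 2815 in trunk chondrocyte replicates 1 and 3. Of the 1411 regions that changed between cell types, 1410 were also called with list length in the model, in which 1605 were called, and 6 were among the 40.

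**Figure D4:**
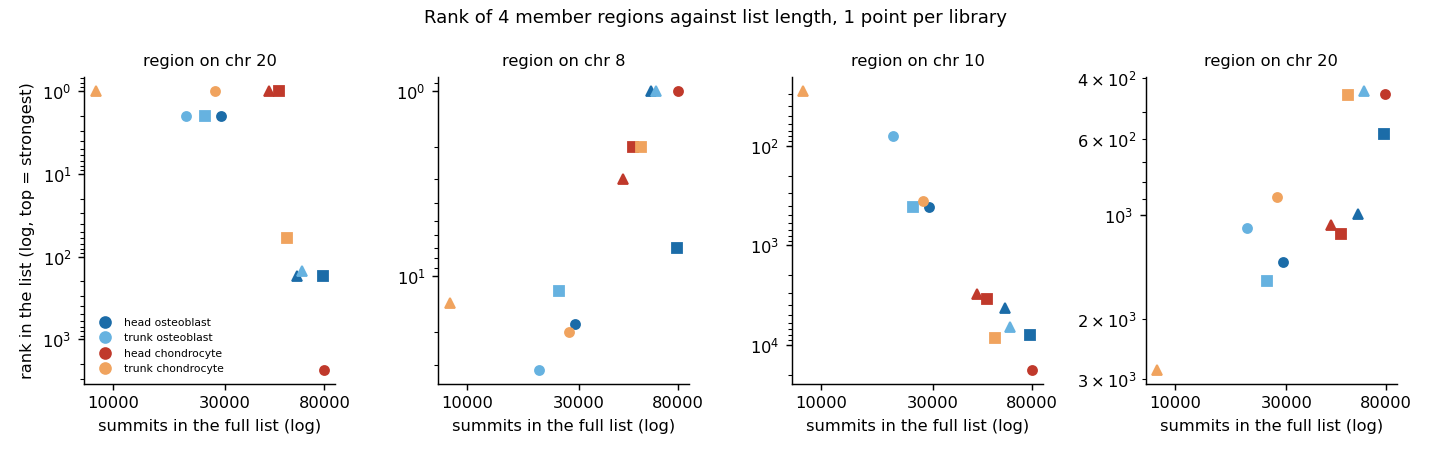
Rank in the full list (log axis, strongest at the top) against the number of summits in the list (log axis) for 4 shared regions, with 1 point per library coloured by group and shaped by replicate as in the other plots. The chromosome 8 region and the last chromosome 20 region stand higher in longer lists, and the first chromosome 20 region and that on chromosome 10 stand lower, though the slopes of the chromosome 8 and the first chromosome 20 region did not pass the threshold. The chromosome 10 region goes from rank 28 in the shortest list to 17868 in the longest.

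The position of the summit within a shared region was not used by the rule except through the chaining. The range over libraries of each library's strongest kept summit had a median of 53 bp (quartiles 33 and 83 bp). The median was 55 bp in regions of both osteoblast groups only, 59 bp in those of both chondrocyte groups only and 61 bp in regions held by exactly 3 groups, which rest on fewer libraries. It was at most 10 bp in 96 regions (2.35%) and over 250 bp in 107 (2.62%). A library had 1 kept summit in a region in 99.8% of the 47361 pairs of library and region. The range was narrower in stronger regions, with a median of 40 bp for median ranks up to 500 and 59.5 bp for median ranks over 4000.

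Within groups the range over 3 libraries, for the 2897 regions with a kept summit in all 12, had a median of 13 bp in head osteoblasts, 12 bp in head chondrocytes, 23 bp in trunk osteoblasts and 30 bp in trunk chondrocytes. The trunk groups hold the 4 shortest of the 12 lists. The median distance of a library's summit from the median summit of the region was largest in trunk chondrocyte replicate 3, at 15.5 bp, and smallest in head chondrocyte replicate 1, at 2.5 bp, which had the longest list. Whether depth accounts for the wider spread in the trunk was not tested.

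In a few shared regions osteoblasts and chondrocytes had their strongest summit at different places. Summit positions were compared in the same limma design, added after the data were seen, over the 5283 regions with a summit in all 12 full lists. Between cell types 23 of the 3548 shared regions among them changed (0.648%, against 0.681% of all tested regions), by 24.5 to 322 bp with a median of 93.5 bp. In 9 of the 23 the shift was over 100 bp, and in 16 of the 23 all 6 osteoblast summits lay on the same side of all 6 chondrocyte summits. Over the 3548 regions that separation occurred in 33 (0.93%, against 1.08% of all tested regions). Of the 23, 13 also changed in rank between cell types. The median absolute difference over the 3548 was 7.33 bp.

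The region on chromosome 23, 27822666 to 27822990, had the smallest p. Its summit lay at 27822942, 27822960 and 27822974 in head osteoblasts and at 27822990, 27822944 and 27822987 in trunk osteoblasts. It lay at 27822685, 27822721 and 27822721 in head chondrocytes and at 27822698, 27822721 and 27822673 in trunk chondrocytes. The strongest summits of the cell types lay 263 ± 11.5 bp apart (SE; limma adjusted p = 9e-07). The gap between them was wider than the spread within either cell type. Weaker summits of a library were not compared. Chaining over gaps of up to 250 bp can join neighbouring sites into 1 region, and whether it did so here was not tested.

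On chromosome 2, 29249388 to 29249773, the osteoblast summits lay 295 ± 15.8 bp below the chondrocyte summits in coordinate (limma adjusted p = 3.7e-06). On chromosome 18, 19657457 to 19657845, they lay between 19657457 and 19657539, and the chondrocyte summits between 19657773 and 19657845. On chromosome 7, 55434801 to 55434958, 3 osteoblast libraries had their summit at the same base, 55434958, and the chondrocyte summits lay between 55434801 and 55434815. On chromosome 16, 35775120 to 35775375, the difference was -183 ± 14.9 bp (limma adjusted p = 9.3e-05). In these 5 regions the strongest summits of the cell types did not overlap, and the limit on chaining given above holds for each.

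Between head and trunk 1 shared region changed in summit position (0.0282%, against 0.0568%), on chromosome 4, 6308585 to 6308752. Its summits lay at 6308585, 6308601 and 6308586 in head osteoblasts and 6308621, 6308626 and 6308639 in trunk osteoblasts, and at 6308639, 6308643 and 6308651 in head chondrocytes and 6308721, 6308721 and 6308752 in trunk chondrocytes. In each cell type the trunk summits lay above the head summits, by 62.5 ± 8.78 bp on average (limma adjusted p = 0.037), and trunk osteoblasts met head chondrocytes at 6308639. This call was lost without any single head osteoblast, trunk osteoblast or head chondrocyte library, with adjusted p-values between 0.1 and 0.35. The count between cell types was 11 without head osteoblast replicate 1 or 2 or head chondrocyte replicate 2, and 13 and 12 without head chondrocyte replicates 1 and 3.

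**Figure D5:**
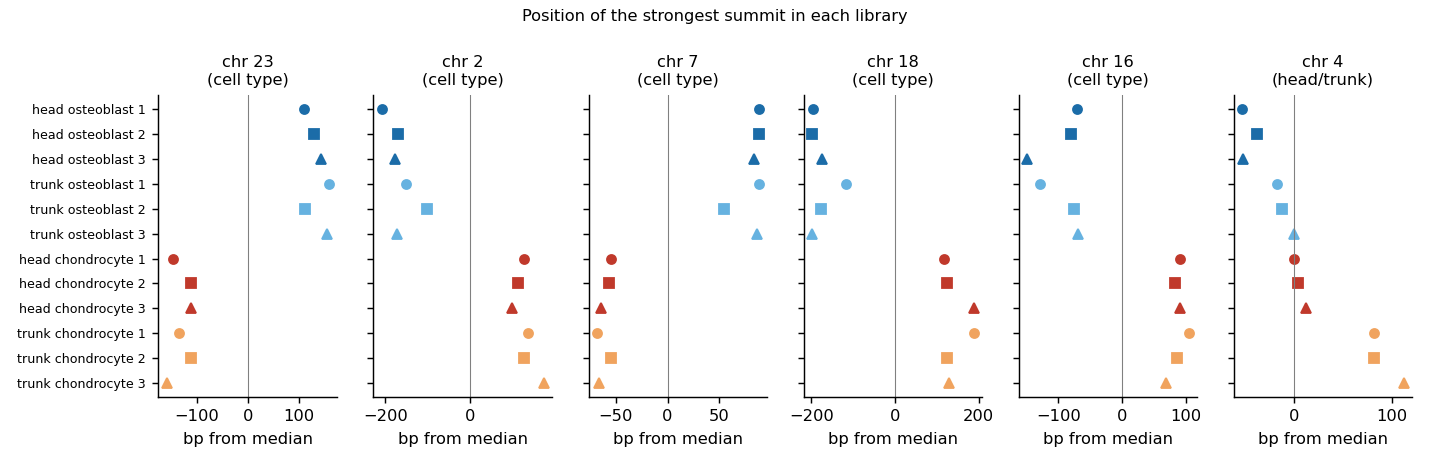
Position of the strongest summit of each library, in bp from the median of the 12, for the 5 shared regions with the smallest p between cell types and the 1 that differed between head and trunk. Rows are libraries in group order, and in the first 5 panels the osteoblast and chondrocyte points lie on opposite sides of the median.

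The shared regions often had another open region close by. Counting regions of any kind in the full lists, 1878 of the 4088 (45.9%) had a neighbour within 1000 bp, and the median distance to the nearest region was 1345 bp. The share was 23.1% for regions of both chondrocyte groups only, 38.9% for those of both osteoblast groups only and 31.4% for all held regions other than the shared ones. Regions that missed trunk chondrocytes alone had 44.9%. The nearest neighbour was 251 to 350 bp away in 708 shared regions (17.3%) and 351 to 450 bp away in 463 (11.3%), the lower limit being set by the chaining.

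The same was seen within libraries, without joining lists. Among the kept summits of a library in shared regions, between 15.4% and 21.5% had another summit of the same full list within 1000 bp in the 6 osteoblast libraries. In the other held regions 14.7% to 17.6% did. In 5 of the chondrocyte libraries the shares were 18.9% to 22.8% and 10.7% to 13%, and in trunk chondrocyte replicate 3 they were 11% and 6.41%. In all 12 libraries the share was higher for the shared regions, and the gap was wider in chondrocytes. It was 15.4% against 14.7% in trunk osteoblast replicate 1 and 21.5% against 17.2% in head osteoblast replicate 2. Shared regions fill the top of the lists, and no comparison at equal rank was made for these shares or those over all lists. Whether summit strength accounts for them was not tested. The shares rest on libraries that hold largely the same regions, so they were not tested as replicates.

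Neighbours among held regions were rarer. Within 1000 bp 7.17% of the shared regions had another held region, against 5.81% of the other held regions. The value is not particular to the shared regions. It was 9.23% in regions that missed head osteoblasts alone, 7.94% for trunk chondrocytes, 6.65% for head chondrocytes and 4.37% for trunk osteoblasts. In all, 50 adjacent pairs of shared regions on chromosomes lay at most 1000 bp apart. The median gap between adjacent shared regions was 126979 bp. Differences between cell types were weakly related between adjacent shared regions. Over the 50 pairs up to 1000 bp apart, Pearson's r of the differences in log2 rank was 0.22, with the same direction in 6 of the 8 pairs in which both had changed. Over the 276 pairs 1000 to 10000 bp apart r was 0.1, over the 890 pairs 10000 to 50000 bp apart it was 0.16, and over the 808 pairs more than 500000 bp apart it was 0.07. For head minus trunk, r over these sets of pairs was 0.45, 0.26, 0.09 and 0.04 in the same order. All pairs share the same 12 libraries, and no test was run on these values. Where both regions of a pair had changed between cell types, 26 of 41 pairs 1000 to 10000 bp apart had the same direction. So did 61 of 91 pairs more than 500000 bp apart.

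Shared regions lay on all 25 chromosomes and 78 (1.91%) on sequences other than these, whose kinds were not told apart. As a share of the regions held by any group they ranged from 24.5% on chromosome 12, with 123 of 502, to 36.6% on chromosome 3, with 284 of 775. Chromosomes 10 and 25 followed with 36.0% and 35.3%, and chromosomes 4 and 18 had 25.1% and 25.6%. Each library showed the spread between the extremes, but the extremes were picked on these same regions and lists. The library shares are thus a description and not separate support. Of the regions with a kept summit, the shared ones made up 51.6% to 59.1% on chromosome 3 in the 12 libraries and 37.3% to 43.1% on chromosome 12, with no overlap. On chromosome 25 the mean share was 57.6% in head and 54.2% in trunk chondrocytes, and 51.9% and 52.7% in osteoblasts. Single libraries ranged from 49.8% to 58.1% there. On chromosome 4 the means were 41.0% and 37.7% in chondrocytes and 45.3% and 47.1% in osteoblasts, with single libraries from 35.3% to 49.8%. These differences between cell types were not tested.

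Chromosome 3 also led per length, but the order below it differed. Taking the last summit in the lists as the end, shared regions numbered 4.53 per Mb on chromosome 3, 4.25 on chromosome 19 and 3.86 on chromosome 20, and 1.38 on chromosome 4. Within 50000 bp of a chromosome's first base or last summit lay 29 of the 4010 shared regions on chromosomes (0.723%), against 0.314% of the other held regions and 0.332% of all regions. Within 500000 bp lay 4.44%, against 3.12% and 3.04%.

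Of the fixed windows of 100 kb with any shared region, 2083 held 1, 589 held 2, 164 held 3, 49 held 4, 11 held 5 and 1 held 6. The window with 6 lay on chromosome 19 from 22200001 to 22300000 and held 14 held regions in all. Its regions did not move as a block. Of the 6, the one at 22240467 described above and the one at 22216698 to 22216716 stood nearer the top in osteoblasts, the latter with geometric mean ranks of 595 and 1570 (limma adjusted p = 0.0088). Those at 22202798 to 22202840 and 22281083 to 22281245 stood nearer the top in chondrocytes, with 139 against 64.4 and 5630 against 2470 (limma adjusted p = 0.039 and 0.018). The other 2 did not pass the threshold.

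The next 2 windows held 5 shared regions each, too few to set against the 34.5% of all shared regions that were called, of which 73.6% stood nearer the top in osteoblasts on this scale. On chromosome 1 from 40400001 to 40500000, 2 of 5 regions changed, both nearer the top in osteoblasts. Those at 40454948 to 40455182 and 40431454 to 40431494 had geometric mean ranks of 658 and 1310 in osteoblasts and 2910 and 4220 in chondrocytes. On chromosome 2 from 5100001 to 5200000, 3 of 5 changed, all nearer the top in osteoblasts. The strongest, at 5135211 to 5135249, had geometric mean ranks of 400 and 1210 (limma adjusted p = 0.0061).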

How the data were processed

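The deposited lists of summits, 1 per library for 12 libraries, give a 1-base position, a peak name and a score. The submitters' processing notes name the tools MACS2, Bowtie2, fastp, deepTools, bedtools and SAMtools and the build danRer11, with no versions, and per the labels reads were shifted before calling. The deposited score is a −log10 value written by the authors' peak caller, of p or of q (the sources do not state which), and it was used only to rank summits within a list. The amount of transposase and the time of reaction were adjusted to cell number per the labels' protocols, which can change how many peaks are called.

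The members and the comparisons were chosen with earlier results of these data known. Summits were chained with Python 3.11.15 and pandas 2.3.3, and positions count from 1. Ranks and summit positions were fitted with limma 3.58.1 in R 4.3.3 (4 group means, trended and robust moderation, 8 residual degrees of freedom, Benjamini-Hochberg adjustment at 0.05 over all regions tested), and the fit was tested on simulated ranks. P-values measure the spread between libraries labelled as biological replicates. Numbers in the peak names differ from the titles in 7 of 12 lists, and the titles were followed. Regions named are the 5 of lowest median rank, the 3 on each side of the rule's limit, the 5 of smallest p per contrast and direction, of which a part is given, and the 3 windows of 100 kb with the most members, ties taken in chromosome order. Those named for list length and summit position, and the interaction, follow rules made after the data were seen. Alternatives changed the list length, chaining, floor, scale, filter, terms and libraries. The planned shares at gene starts and with motifs were not made.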

Additional observations from a re-analysis of the deposited data

Results flagged for a closer look

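The difference between osteoblasts and chondrocytes in log2 rank differed between head and trunk in 10 of the 4088 shared regions, by the interaction term of the limma model (0.245%, against 1.1% of all tested regions). In the region with the smallest p, on chromosome 13 from 32440609 to 32440717, head osteoblasts ranked 6833, 5474 and 4907 and head chondrocytes 497, 376 and 637. Trunk osteoblasts ranked 4390, 3861 and 2446 and trunk chondrocytes 3687, 2411 and 3042. On the log2 scale head cells differed by 3.53 and trunk cells by 0.21, and the interaction was 3.32 ± 0.5 (SE; limma adjusted p = 0.012). On chromosome 2 from 35630340 to 35630466 the differences for head and trunk were 2.74 and -0.25, and on chromosome 13 from 13367612 to 13367774 they were 2.51 and -0.6. The count was between 1 and 29 when single libraries were left out. It was 0 without the 3 libraries that lost files, with 203 at an unadjusted p under 0.05 in limma. That fit had 5 residual degrees of freedom and called 0 of all tested regions too.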

How the results depend on the processing

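The number of shared regions followed the list length, with 14542 from full lists, 9477 from as many summits as the second shortest list holds, 2493 from 5000 and 1275 from 2500. It was 3419 to 3937 without single libraries and stayed within 1.5 times of 4088 under the other alternatives run. The median summit range of 53 bp was 57 bp over all summits of the full lists and 45 to 53 bp without single libraries.

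Between cell types the count of 1411 was 1112 to 1659 without single libraries. It left the range of 1.5 times with a replicate block taken from the peak names (846, with 25.5% of all tested regions called). The 10 regions named for this contrast kept their direction and their call under each alternative in which they were tested. Of the 10, 4 were outside the fit limited to regions kept in all 12 libraries. With the title number as a replicate block the count was 1373, with 38.8% of all tested regions called. Libraries of different groups with the same title number deviated together, with a correlation over 0.1, in 3 of 18 pairs (range -0.3 to 0.37). By title number 5 of 12 libraries correlated best with their own number. By the numbers in the peak names, 2 of 13 pairs were over 0.1. The deviations are from means of 3 libraries and also vary with list length, so these values cannot show whether the libraries were paired.

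Between head and trunk the count of 80 was 25 to 161 without single libraries, 47 and 19 with replicate blocks from the titles and the peak names, 41 with file loss and 38 with list length as a term, 169 with ranks from full lists, 151 without trend and robust moderation, 36 over regions kept in all 12 libraries, 22 without the filter, 30 with ranks among the shared regions and 0 without file-loss libraries. The fit without file-loss libraries called 0 of all tested regions too. The cause was not tested.

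The interaction count of 10 was 1 to 29 without single libraries, 24 with normal scores, 2 without the filter, 3 over regions kept in all 12, 4 and 0 with the replicate blocks from titles and peak names (the latter with 195 at an unadjusted p under 0.05 in limma), 5 with file loss as a term, 30 without trend and robust moderation, 1 with ranks among the shared regions and 0 without the file-loss libraries. The list length count of 40 was 19 to 62 without single libraries. The summit position count of 23 between cell types was 11 to 25 without single libraries, 40 without trend and robust moderation and 13 with the replicate block. The count of 1 between head and trunk was 0 to 1, 3, and 0 in the same order (159 at an unadjusted p under 0.05), and 0 with list length as a term (131). Lists give no read counts, so depth limits every call by an unknown amount.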
